A study of Mus musculus with 15 samples.

Results

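The snoRNA host genes described here are Gas5, Snhg1, Snhg3, Snhg5, Snhg6, Snhg8, Snhg12 and Zfas1. They are 8 of the 53379 genes in the deposited table of normalized read counts, they were found by their symbols, and these symbols were chosen by a selection made with earlier results of the same libraries in view. The RNA came from mouse fetal liver cells transformed with MLL-ENL, a fusion oncogene of leukemia, grown in medium with IL-3. WTFL cells carry floxed Cebpa and Cebpb that have not been recombined, dKO cells have lost Cebpa and Cebpb and express GFP, and dKO-LAP* cells are dKO cells that express GFP and the rat C/EBPβ isoform LAP*, its long form. Clone C1 was analysed here as WTFL, dKO and dKO-LAP* cells and clone C2 as WTFL and dKO cells, with 3 libraries in each of the 5 groups. The WTFL labels list no exogenous GFP, so gene loss and the GFP vector cannot be told apart in a comparison of dKO with WTFL cells. The dKO lines of C1 and C2 are single subclones that came from different mice. They were picked among cells that survived a second TAT-Cre treatment of pooled, partly deleted clones, so dKO and WTFL cells of the same clone label are not known to share a parental clone, and gene loss, this selection and differences between parental clones cannot be told apart. The 3 libraries of a group are RNA samples taken from 1 line at different times, so an SD or a p-value below covers the spread between such samples and not the spread between mice or clones.

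A snoRNA host gene is transcribed and spliced, and small nucleolar RNAs are trimmed from its excised introns. Most box C/D snoRNAs guide the methylation of ribosomal RNA and most box H/ACA snoRNAs its pseudouridylation, and a few of either class act in the cleavage of its precursor. The spliced RNA of several hosts begins with a terminal oligopyrimidine tract (5′ TOP), as the mRNAs of ribosomal proteins do, and carries only short reading frames, and nonsense-mediated decay removes such RNAs when they are translated. Gas5, growth arrest-specific 5, was named for RNA that accumulates in cells that stop growing, and its spliced RNA can bind the glucocorticoid receptor. Because polyadenylated RNA was sequenced, the values below are those of the spliced or unspliced host RNA and not of the snoRNAs.

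In the GENCODE vM21 annotation of mm10, Gas5 (ENSMUSG00000053332) lies at chr1:161034422-161038539 on the plus strand and holds 9 snoRNA loci. Snhg1 lies at chr19:8723475-8726443 on the plus strand and holds 8. The other hosts hold between 1 and 4 loci: Snhg5 lies at chr9:88521050-88522929 on the minus strand, Snhg6 at chr1:9941959-9944118 on the minus strand and Zfas1 at chr2:167062934-167065862 on the plus strand, and like Gas5 and Snhg1 they host box C/D snoRNAs. Snhg12 at chr4:132308623-132311024 on the plus strand holds snoRNAs of both classes. Snhg3 at chr4:132348014-132353686 and Snhg8 at chr3:123507552-123508404, both on the minus strand, host box H/ACA snoRNAs. All 8 are annotated as non-coding genes.

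The starts of 5 hosts are shown because a pyrimidine tract at the start is what a 5′ TOP gene is recognized by. They are those with the longest runs of C and T near a RefSeq start, 6 to 9 bases, and Snhg3 and Zfas1, with runs of 5 and 4 bases, are not shown. Each line holds 50 bases before and 30 bases from an annotated RefSeq start (GRCm38.p6), 5′ to 3′ on the strand of the gene, and capitals mark the longest run of C and T near the start.
Gas5, chr1:161035116-161035195, plus strand: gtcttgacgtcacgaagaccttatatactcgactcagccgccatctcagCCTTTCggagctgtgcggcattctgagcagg
Snhg8, chr3:123508307-123508386, minus strand: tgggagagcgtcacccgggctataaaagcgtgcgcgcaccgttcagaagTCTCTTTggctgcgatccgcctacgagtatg
Snhg12, chr4:132308628-132308707, plus strand: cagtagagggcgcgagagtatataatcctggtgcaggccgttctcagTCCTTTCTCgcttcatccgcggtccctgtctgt
Snhg5, chr9:88522868-88522947, minus strand: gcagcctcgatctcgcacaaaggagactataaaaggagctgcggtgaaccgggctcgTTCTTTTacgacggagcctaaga
Snhg1, chr19:8723437-8723516, plus strand: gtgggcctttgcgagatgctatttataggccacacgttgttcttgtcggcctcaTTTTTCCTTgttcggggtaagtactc

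With a C at the annotated start followed by at least 4 more pyrimidines as the definition, 2 of the 7 hosts with a RefSeq promoter (all but Snhg6) had the tract, Gas5 and Snhg8, against 3.01% of 27025 genes and 2.94% of the 9415 tested genes with a RefSeq promoter. A gene was counted if any of its RefSeq starts had the letters. Gas5 has 2 such starts, and the other, at position 161034601, had no run of 4 or more pyrimidines near it. With a run of at least 7 pyrimidines that began within 20 bases of the start, 4 of 7 hosts had it, against 29.2% of all genes and 28.9% of tested genes. Starts of single GENCODE transcripts gave another count, and 7 of the 8 hosts had at least 1 transcript that began with C and at least 4 more pyrimidines, against 10.2% of 12660 genes tested for expression, with Snhg1 as the exception. The hosts have a median of 5.5 annotated transcripts and the tested genes a median of 5. 1 such transcript each of Snhg6 and Zfas1 is shown by its first 40 bases, with capitals again for the pyrimidine run. Like Gas5, these 2 hosts had every dKO library of clone C2 above all other libraries. For Zfas1 the margin was small, 435.2 against 433.5 normalized reads. The Zfas1 transcript begins at another position than the RefSeq start, 167062934, which has no such tract.
Snhg6, chromosome 1 from 9944118, minus strand: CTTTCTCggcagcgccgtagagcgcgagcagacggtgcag
Zfas1, chromosome 2 from 167063221, plus strand: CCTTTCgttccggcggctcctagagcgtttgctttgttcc

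Other letters searched on both strands of the RefSeq windows, 250 bases before to 50 bases after the start, were TTGCNNAA, the core of a C/EBP site, which was in none of the 7 hosts, in 12.2% of all genes and in 10.3% of tested genes, and CACGTG, an E-box, which was in none of the 7, in 8.09% of all genes and in 1131 of the 9415 tested genes. TGACGTCA, a cAMP response element, was in 1 host (Gas5, at the left of its sequence above), in 2.03% of all genes and in 3.64% of tested genes. TATAAA within 50 bases before the start, on the strand of the gene, was in 2 hosts (Snhg5 and Snhg8), in 3.15% of all and in 1.67% of tested genes. These matches describe letters only.

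The libraries held 9212237 to 13613500 reads on genes, and 12673 of 24520 genes with any read were tested because 3 or more libraries had 10 or more normalized reads of them; all 8 hosts were among these. Dividing the reads of each library by its own size factor gave the normalized read counts. Cebpa had 903 to 2267 normalized reads in the WTFL libraries and 0 in every dKO library, with at most 0.920 in a dKO-LAP* library. Cebpb had 1353 to 1634 in the WTFL libraries, 0 in every dKO library and 2538 to 4216 in the dKO-LAP* libraries, which express it from a construct. All 8 markers of myeloid progenitors were expressed, and 3 of 4 hepatocyte markers (Alb, Apoa1 and Ttr) were at 0 in all 15 libraries. The 4 lymphoid markers summed to at most 2.68 normalized reads and the 4 erythroid markers to at most 18.3. The fourth hepatocyte marker, Afp, ran from 4.61 to 165 normalized reads. Of the 4 stromal and endothelial markers Col3a1 was at 0, Col1a1 had at most 8.39, Pdgfrb 1.83 to 107 and Pecam1 117 to 570 normalized reads. Afp, Pdgfrb and Pecam1 differed between groups, and their values are given after those of the hosts.

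In clone C2 the dKO cells had more RNA of 7 of the 8 hosts than the WTFL cells, led by Gas5 at 2.28-fold and Snhg6 at 1.98-fold. There 17.4% of all tested genes were called higher. In clone C1 only Gas5 was called higher in dKO cells, at 1.27-fold, Zfas1 was called lower, and the other 6 were not called. Of all tested genes 17.1% were called higher and 19.9% lower in that clone. In the WTFL cells themselves 6 of the 8 hosts were lower in clone C2 than in clone C1, as were 21.3% of all tested genes. Between dKO-LAP* and dKO cells of clone C1 none of the 8 was called by limma, where 1.43% of all tested genes were higher and 3.03% lower. With so few calls over all genes, 0 of 8 does not show that the hosts were unchanged. Snhg3 was at the threshold (adjusted p = 0.0506 in limma) and was called by edgeR and DESeq2. A call is a Benjamini-Hochberg adjusted p under 0.05 over all 12673 genes in limma, fitted to log2(normalized reads + 1) of all 15 libraries, and a log2 difference below is always on that scale. In these bulk samples fewer cells that express a gene and less RNA per cell cannot be told apart.

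**Figure D1:**
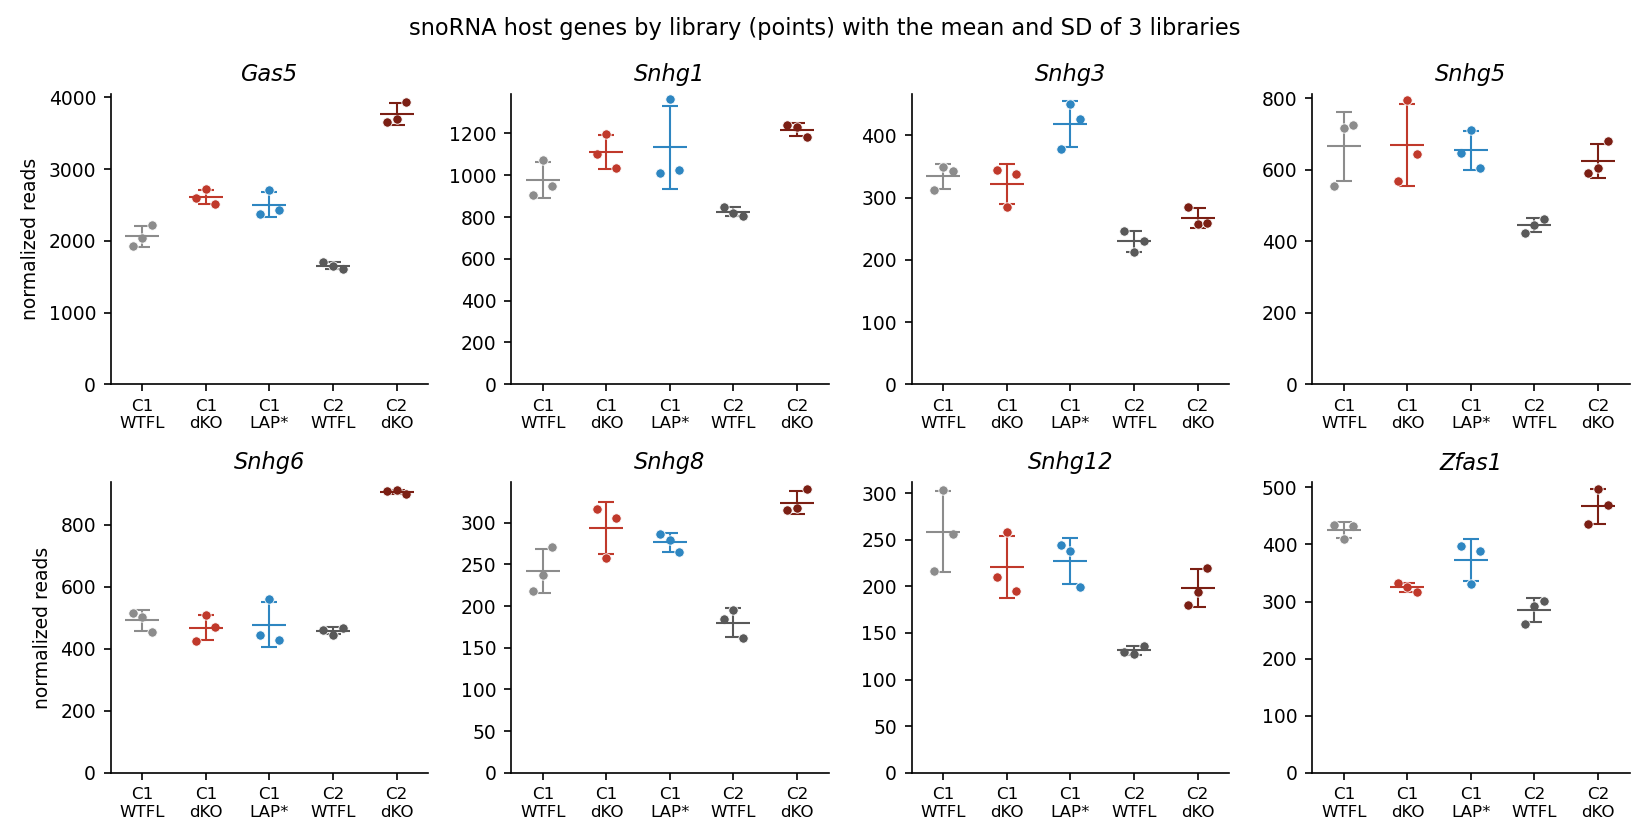
Normalized reads (y axis) of the 8 snoRNA host genes, 1 panel per gene, with 1 point per library in each of the 5 groups (x axis), a horizontal line at the mean and bars for the SD of 3 libraries. For Gas5, Snhg6 and Zfas1 all 3 dKO libraries of clone C2 lie above all 12 other libraries, as they do for 8.29% of all tested genes.

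The counts of calls are set beside the share of all tested genes called the same way. For dKO against WTFL cells of clone C1, 1 host was higher and 1 lower, where 17.1% of all genes were higher and 19.9% lower, and the median log2 difference of the 8 was -0.03 (-0.01 over all tested genes). For clone C2, 7 hosts were higher and 0 lower, where 17.4% of all genes were higher and 20.1% lower, and the median was 0.65 (-0.03 over all tested genes). In clone C1 the groups were apart upwards for 1 host (Gas5) and downwards for 1 (Zfas1), as they were for 21.7% and 23.5% of all tested genes. In clone C2 they were apart upwards for all 8 hosts and downwards for 0, as they were for 23.7% and 27.8% of all tested genes. The difference between the 2 clones in the dKO effect, taken as the effect in C2 minus that in C1, was called above 0 for 6 hosts and below 0 for none, where 15.1% of all genes were above and 14.3% below, and its median was 0.69. As the hosts were selected on earlier results of these libraries, these counts describe them and were not put to a test of their own.

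Gas5 is the host with the most snoRNA loci and the most reads. Its normalized reads were 1925, 2036 and 2221 in the WTFL libraries of clone C1, 2593, 2716 and 2516 in its dKO libraries and 2369.9, 2707 and 2436 in its dKO-LAP* libraries. In clone C2 they were 1706, 1643 and 1606 in WTFL and 3657, 3692 and 3936 in dKO libraries. Every dKO library was thus above every WTFL library in both clones, and the 3 WTFL libraries of C2 were the lowest of the 15. The log2 difference between dKO and WTFL cells was 0.34 in C1 (SE 0.07, 95% CI 0.19 to 0.49, adjusted p = 0.00118) and 1.19 in C2 (SE 0.07, 95% CI 1.04 to 1.34, adjusted p = 3.68e-09). The difference between these effects was 0.85 (SE 0.10, 95% CI 0.63 to 1.06, adjusted p = 1.42e-05). Gas5 alone held 36.2% to 49.3% of the normalized reads of the 8 hosts in a library.

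Snhg1, first described as the host gene of Snord22, had 907, 1072 and 948 normalized reads in WTFL, 1103, 1199 and 1033 in dKO and 1009.7, 1363 and 1026 in dKO-LAP* libraries of clone C1. In clone C2 it had 849, 821 and 805 in WTFL and 1242, 1229.6 and 1182 in dKO libraries. The groups overlapped in C1 and were apart in C2, and the highest value of the 15 was 1 dKO-LAP* library. The log2 difference between dKO and WTFL cells was 0.19 in C1 (SE 0.10, 95% CI -0.03 to 0.41, adjusted p = 0.166) and 0.56 in C2 (SE 0.10, 95% CI 0.34 to 0.78, adjusted p = 0.00045). Between the clones the effects differed by 0.37, which was not called (SE 0.14, 95% CI 0.06 to 0.68, adjusted p = 0.066).

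Snhg5 hosts Snord50a and Snord50b. It had 555, 718 and 726 normalized reads in WTFL, 569.7, 795 and 643 in dKO and 646, 713 and 605 in dKO-LAP* libraries of clone C1, and the 3 groups overlapped. In clone C2 it had 424, 447 and 464 in WTFL and 592, 605 and 680.0 in dKO libraries, which did not overlap. In C1 the log2 difference between dKO and WTFL cells was 0.00 (SE 0.12, 95% CI -0.26 to 0.27, adjusted p = 0.988). In C2 it was 0.49 (SE 0.12, 95% CI 0.23 to 0.75, adjusted p = 0.00536). The dKO libraries of C2 did not exceed the range of the C1 libraries; it was the WTFL libraries of C2 that were the lowest of the 15. For Snhg5 the effect in C2 exceeded that in C1 by 0.49 (SE 0.17, 95% CI 0.11 to 0.86, adjusted p = 0.0475), and it passed the threshold in only 6 of 23 alternative analyses, with adjusted p up to 0.12.

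Snhg6 and Zfas1 stood with Gas5 as the 3 of 8 hosts whose dKO libraries of clone C2 exceeded all 12 other libraries. Over all tested genes 8.29% had these 3 libraries above all others and 7.09% had them below, and 0 hosts had them below. Snhg6 holds a single snoRNA gene, Snord87, shown here with its box C (TGATGA) and box D (CTGA) in capitals beside Snord47, 1 of the snoRNAs inside Gas5, because these boxes define the class that both hosts carry.
Snord87, chr1:9942463-9942549, minus strand: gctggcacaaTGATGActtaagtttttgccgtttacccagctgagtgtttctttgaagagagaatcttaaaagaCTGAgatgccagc
Snord47, chr1:161038082-161038158, plus strand: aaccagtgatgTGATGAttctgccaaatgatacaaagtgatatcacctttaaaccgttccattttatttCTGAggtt

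Snhg6 had 516, 502 and 454 normalized reads in WTFL, 426, 509 and 469.5 in dKO and 445, 559.5 and 429 in dKO-LAP* libraries of clone C1. Its C2 values were 461, 446 and 467 in WTFL and 908, 911 and 899 in dKO libraries. The 12 libraries outside the C2 dKO group lay between 426 and 559.5 normalized reads, and the C2 dKO libraries lay above them, between 899 and 911. The coefficient of variation of these 3 libraries was 0.691%, and whether so close values differ from the spread of other groups was not tested. The log2 difference between dKO and WTFL cells was -0.07 in C1 (SE 0.10, 95% CI -0.28 to 0.14, adjusted p = 0.613) and 0.98 in C2 (SE 0.10, 95% CI 0.77 to 1.19, adjusted p = 1.44e-06). Between the clones the dKO effects of Snhg6 differed by 1.05 (SE 0.14, 95% CI 0.76 to 1.35, adjusted p = 4.22e-05).

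Zfas1, an antisense gene at the start of Znfx1 that hosts the Snord12 family, was the host that moved in opposite directions. It had 434, 409 and 433 normalized reads in WTFL, 333, 325 and 317 in dKO and 398, 330.0 and 388 in dKO-LAP* libraries of clone C1. In clone C2 it had 261, 293 and 300.5 in WTFL and 435, 497 and 469 in dKO libraries. In C1 every dKO library was below every WTFL library, in C2 every dKO library was above, and the lowest C2 dKO library (435) was just above the highest of the rest (434). In dKO cells Zfas1 fell by 0.39 on the log2 scale in C1 (SE 0.09, 95% CI -0.58 to -0.19, adjusted p = 0.0037), which is 1.31-fold lower. It was 0.71 in C2 (SE 0.09, 95% CI 0.52 to 0.91, adjusted p = 1.95e-05), and the difference between the clones was 1.10 (SE 0.13, 95% CI 0.82 to 1.38, adjusted p = 1.57e-05).

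Snhg12, which holds Snora16a, Snora44, Snora61 and Snord99, had 217, 303 and 256 normalized reads in WTFL, 209.5, 258 and 195 in dKO and 245, 238 and 199 in dKO-LAP* libraries of clone C1, all overlapping. In clone C2 it had 129, 128 and 136 in WTFL and 179.9, 194 and 219.9 in dKO libraries. The C2 WTFL libraries were the lowest of the 15, and 2 of the C2 dKO libraries were below all C1 libraries while the third was not. Between dKO and WTFL cells Snhg12 had a log2 difference of -0.22 in C1 (SE 0.14, 95% CI -0.52 to 0.08, adjusted p = 0.239) and 0.59 in C2 (SE 0.14, 95% CI 0.28 to 0.89, adjusted p = 0.00408). For Snhg12 the effects in the clones differed by 0.81 (SE 0.20, 95% CI 0.38 to 1.24, adjusted p = 0.0064).

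Snhg8, the host of Snora24, had 218, 237 and 271 normalized reads in WTFL, 317, 258 and 306 in dKO and 286, 279 and 264 in dKO-LAP* libraries of clone C1. The C2 values were 184, 195 and 161 in WTFL and 315, 318 and 340.0 in dKO libraries. In C1 1 WTFL library lay above the lowest dKO library, and in C2 the groups were apart. Between dKO and WTFL cells Snhg8 had a log2 difference of 0.28 in C1, not called (SE 0.11, 95% CI 0.04 to 0.52, adjusted p = 0.0631), and 0.85 in C2 (SE 0.11, 95% CI 0.61 to 1.09, adjusted p = 2.33e-05). The difference between the clones was 0.57 (SE 0.16, 95% CI 0.23 to 0.91, adjusted p = 0.0127).

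Snhg3, the host of Snora73a and Snora73b, was the host with no call for dKO against WTFL cells in either clone, except that quantile normalization gave a call in C2 (adjusted p = 0.0495). It had 312, 349.9 and 342 normalized reads in WTFL, 344, 285 and 338 in dKO and 379, 451 and 427 in dKO-LAP* libraries of clone C1. Its values in C2 were 246, 213 and 231 in WTFL and 286, 258 and 259.6 in dKO libraries. The dKO-LAP* libraries were the 3 highest of the 15, and the 6 libraries of C2 were below all but 1 of the C1 libraries. For Snhg3 the log2 difference between dKO and WTFL cells was -0.06 in C1 (SE 0.10, 95% CI -0.28 to 0.16, adjusted p = 0.712) and 0.22 in C2 (SE 0.10, 95% CI 0.00 to 0.44, adjusted p = 0.111), although the C2 groups did not overlap. The difference between the clones was 0.28 (SE 0.15, 95% CI -0.04 to 0.59, adjusted p = 0.179).

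**Figure D2:**
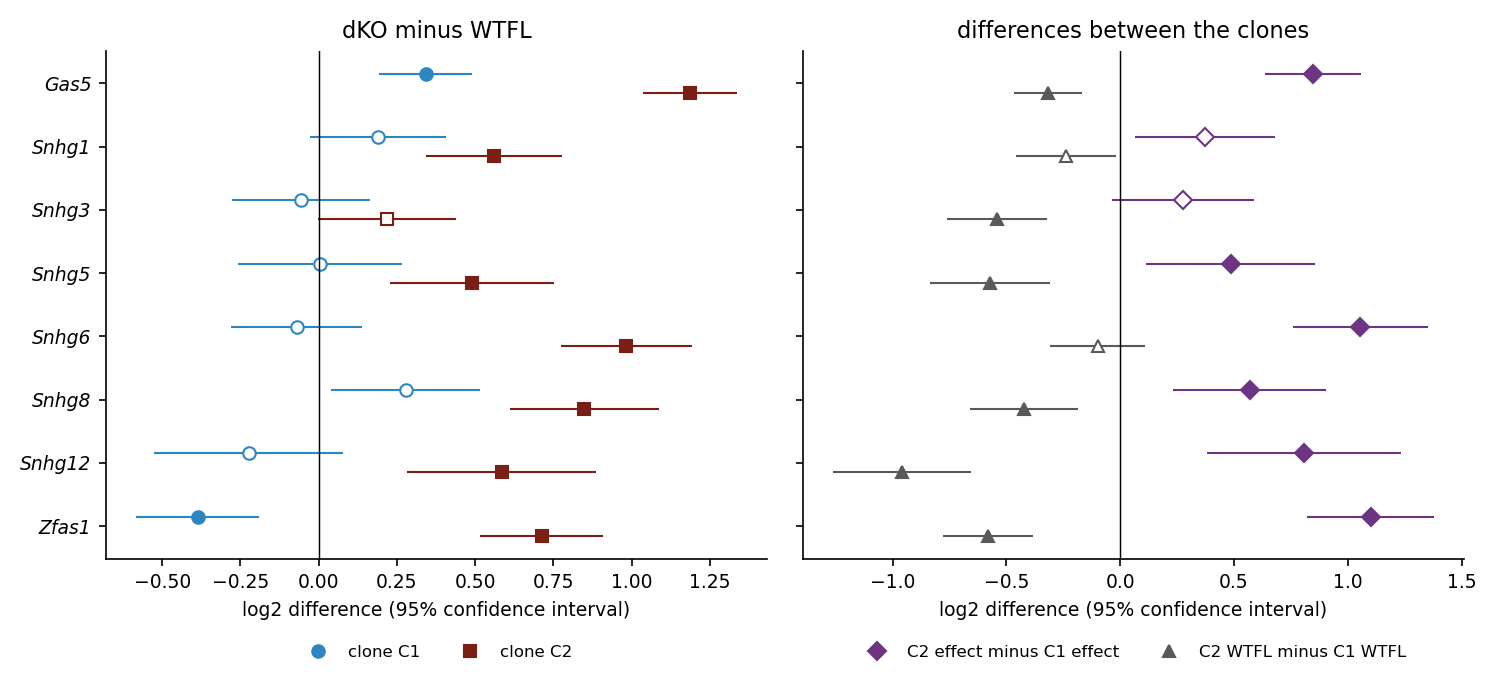
Log2 difference (x axis, log2(normalized reads + 1) scale) of each host gene with its 95% confidence interval from limma, for dKO against WTFL cells in clones C1 and C2 (left) and for the difference of these effects and of the WTFL cells between the clones (right). Filled symbols mark an adjusted p under 0.05, and for dKO against WTFL cells 7 of 8 are filled in C2 and 2 of 8 in C1.

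The WTFL cells of the clones differed in host gene levels. Against WTFL cells of C1, those of C2 had 6 hosts lower and 0 higher, where 21.3% of all genes were lower and 19.7% higher, and the median log2 difference of the 8 hosts was -0.48. This comparison shares its C2 WTFL libraries with the dKO comparison of C2, so low values there enter both. Snhg12 fell by 0.96 (SE 0.14, adjusted p = 4.89e-05), Zfas1 fell by 0.58 (SE 0.09, adjusted p = 0.000101) and Snhg5 fell by 0.57 (SE 0.12, adjusted p = 0.00149). Snhg3 fell by 0.54 (SE 0.10, adjusted p = 0.000547), Snhg8 fell by 0.42 (SE 0.11, adjusted p = 0.00645) and Gas5 fell by 0.32 (SE 0.07, adjusted p = 0.00178). Snhg1 had a difference of -0.24 (95% CI -0.46 to -0.02, adjusted p = 0.0761) and Snhg6 one of -0.10 (95% CI -0.31 to 0.11, adjusted p = 0.46). The WTFL groups of Snhg6 overlapped, and C2 lay wholly below C1 for the other 7 hosts, as it did for 26.1% of all tested genes, with 24.5% wholly above.

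LAP* in dKO cells was analysed here in clone C1, and columns headed as LAP* of clone C2 were not used. Between dKO-LAP* and dKO cells no host was called by limma, where 1.43% of all genes were higher and 3.03% lower, and 1 host, Snhg3, had an unadjusted p under 0.05. For Snhg3 the log2 difference was 0.38 (SE 0.10, 95% CI 0.16 to 0.60, adjusted p = 0.0506), 1.30-fold, and its dKO-LAP* libraries were all above its dKO libraries. The count tests on recovered reads called it, with an adjusted p of 0.0412 in edgeR and 0.027 in DESeq2. The other 7 hosts had log2 differences from -0.08 to 0.19. For Gas5 the difference was -0.06 with a 95% CI of -0.21 to 0.09 (adjusted p = 0.717), and for Zfas1 it was 0.19 with a 95% CI of -0.01 to 0.39 (adjusted p = 0.297).

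Against WTFL cells of C1, dKO-LAP* cells had 2 hosts higher and 0 lower, where 14.2% of all genes were higher and 18.3% lower. Gas5 was 1.22-fold higher (log2 difference 0.28, SE 0.07, 95% CI 0.13 to 0.43, adjusted p = 0.00551) and Snhg3 was 1.25-fold higher (0.32, SE 0.10, 95% CI 0.10 to 0.54, adjusted p = 0.026). The call of Snhg3 was lost without dKO-LAP* library 2 (adjusted p = 0.103), without dKO-LAP* library 3 (adjusted p = 0.0745) and without WTFL library 1 (adjusted p = 0.102). Zfas1 had a difference of -0.20 (95% CI -0.39 to 0.00, adjusted p = 0.12) with no overlap of the groups. The comparisons within C1 share the dKO or the WTFL libraries, so their values are not independent of each other.

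To compare levels between hosts, normalized reads were divided by the length of the annotated exons in kilobases. Gas5 was the highest host in all 5 groups on this scale, with C1 means of 548 (WTFL), 694 (dKO) and 666 (dKO-LAP*) per kilobase and C2 means of 439 (WTFL) and 1000.5 (dKO), and its libraries did not overlap those of the next host in any group. Zfas1 and Snhg12 were the lowest hosts in every group. Zfas1 had 97.2 to 159 and Snhg12 had 54.7 to 108 normalized reads per kilobase as group means, and the hosts did not overlap each other or the host above them. The 5 hosts between were close together in C1 WTFL cells, from 429 for Snhg6 to 284 for Snhg8, and each neighbour in that order overlapped the next. In C2 WTFL cells Snhg6 (400 per kilobase) and Snhg1 (278) stood clear of their neighbours, whereas Snhg5 (257), Snhg3 (233) and Snhg8 (211) overlapped each next one. In C2 dKO cells Snhg6 (790 per kilobase) was clear of Snhg1 (410), which overlapped Snhg8 (380), which overlapped Snhg5 (362). The exon length merges all annotated transcripts, retained introns included, and is 3760 bases of 4118 for Gas5, the whole span for Snhg1, Snhg8, Snhg12 and Zfas1, but 986 of 5673 for Snhg3, and a long merged exon length lowers the level per kilobase.

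**Figure D3:**
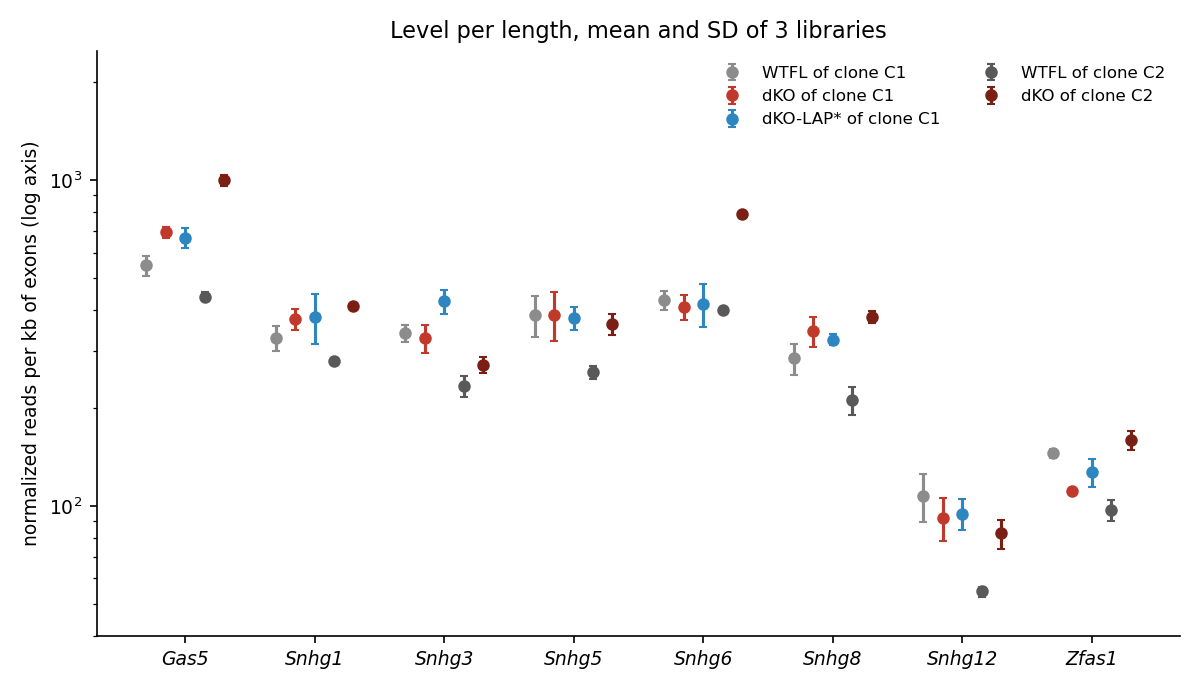
Normalized reads per kilobase of annotated exons (y axis, log scale) of the 8 hosts (x axis) in each of the 5 groups, as the mean with bars for the SD of 3 libraries. Gas5 is highest in every group and reaches 1000.5 in dKO cells of clone C2, and Snhg12 is lowest with 54.7 to 108.

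Some hosts share ground with other genes, and the counting of shared bases is not stated. Snhg3 shares 135 exon bases, 13.7% of its exons, with Rcc1 on the same strand, so reads there cannot be assigned to 1 of the genes, and Rcc1 itself was not called in any of the 6 comparisons. Its antisense neighbour Gm17300 covers 705 exon bases of Snhg3 and had a mean of 0.137 normalized reads. Zfas1 shares 82 bases (2.80% of its exons) with Znfx1 on the other strand, and Snhg6 shares 127 bases with Mcmdc2, which had a mean of 2.22 normalized reads. Of 32 snoRNA gene models inside the hosts, 60 to 205 bases long, 28 had no read in any library, and the largest sums over 15 libraries were 486 reads for Snora73b and 253 for Snora73a, so the table does not measure the snoRNAs.

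The genes that start within 1000 bases of a host on the opposite strand were Zbtb37 at Gas5, Slc3a2 at Snhg1 and Znfx1 at Zfas1. Zbtb37, a zinc finger protein, had 206 to 265 normalized reads in WTFL and 237 to 282 in dKO libraries of C1, and 199 to 248 in WTFL and 296 to 389 in dKO libraries of C2. Its groups were apart in C2 alone, with a log2 difference of 0.61 (SE 0.15, adjusted p = 0.00444) against 0.08 in C1 (adjusted p = 0.711), and the difference between the clones was not called (0.53, adjusted p = 0.0739). Slc3a2, the heavy chain of several amino acid transporters, had 2231 to 2483 normalized reads in WTFL and 1600.2 to 1971 in dKO libraries of C1, and 2955 to 3379 and 2884 to 3056 in those of C2. It fell by 0.39 in C1 (SE 0.08, adjusted p = 0.0016) and had -0.07 in C2 (adjusted p = 0.525). Znfx1, a helicase of the antiviral response, had 863 to 1984 normalized reads in WTFL and 472 to 542 in dKO libraries of C1, and 426 to 512 and 264 to 338 in those of C2. It fell by 1.38 in C1 (SE 0.21, adjusted p = 8.71e-05) and fell by 0.64 in C2 (SE 0.21, adjusted p = 0.0255), so in C2 it was lower where Zfas1 was higher.

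Other snoRNA host genes were counted in the same fit. For this and all lists below, 17.1% of all tested genes were higher and 19.9% lower in dKO cells of C1. In those of C2, 17.4% were higher and 20.1% lower. A list of 15 other hosts, taken as non-coding by name, had 11 in the table by symbol and 9 tested. GENCODE annotates 1 of the 9, Snhg11, as protein-coding. Of the 9, 1 was higher and 1 lower in dKO cells of C1 (median log2 difference 0.38) and 4 were higher and 0 lower in those of C2 (median 0.49). The difference between the clones was called for 1 of the 9, above 0. Epb41l4aos had a log2 difference of 0.40 in C1 (adjusted p = 0.152) and 0.85 in C2 (SE 0.21, adjusted p = 0.00442). Snhg11 fell by 3.46 in C1 (SE 0.30, adjusted p = 2.99e-07), from a mean of 143 to 11.3 normalized reads, and had -0.66 in C2 (adjusted p = 0.104), where its mean was 1121 in WTFL cells. The difference of Snhg11 between the clones was 2.80 (adjusted p = 0.000162). Snhg10 had group means of at most 9.92 normalized reads and was not called.

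Genes of any name that hold an annotated snoRNA gene on their own strand were counted too, without a choice of symbols. Of 16 such genes that are tested, not annotated as protein-coding and not among the 8, including Cct6a, a chaperonin gene annotated as a processed transcript, 2 were higher in dKO cells of C1 and 10 (62.5%) in those of C2, with 0 lower in either, and the medians were 0.20 and 0.50. The difference between the clones itself was called above 0 for 3 of the 16 (18.75%, against 15.1% of all genes) and below 0 for 0. These 16 are not separate from the 9 above, of which 6 are among them, and Snhg11 is among the protein-coding hosts counted next. In WTFL cells of C2 against C1, 7 of these 16 were lower and 0 higher. Of 200 tested protein-coding hosts, 24 (12%) were higher and 47 (23.5%) lower in dKO cells of C1, and 62 (31.0%) were higher and 32 (16%) lower in those of C2. The difference between the clones was above 0 for 44 of these 200 and below 0 for 13. A shorter list of 25 protein-coding hosts, mostly of ribosomal proteins and translation factors, had 8 higher and 0 lower in C1 and 14 higher and 0 lower in C2, with the difference between the clones called above 0 for 4 and below 0 for 0. All 25 are among the 200. In that list Eef1b2, a subunit of elongation factor 1, rose by 0.31 in C1 (adjusted p = 0.00621) and 0.83 in C2 (adjusted p = 9.46e-07), and Rps20, a protein of the small ribosomal subunit, rose by 0.23 (adjusted p = 0.0165) and 0.53 (adjusted p = 2.66e-05). Hspa8 and Eif4a1 had the lowest mean differences of the list and were not called.

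**Figure D4:**
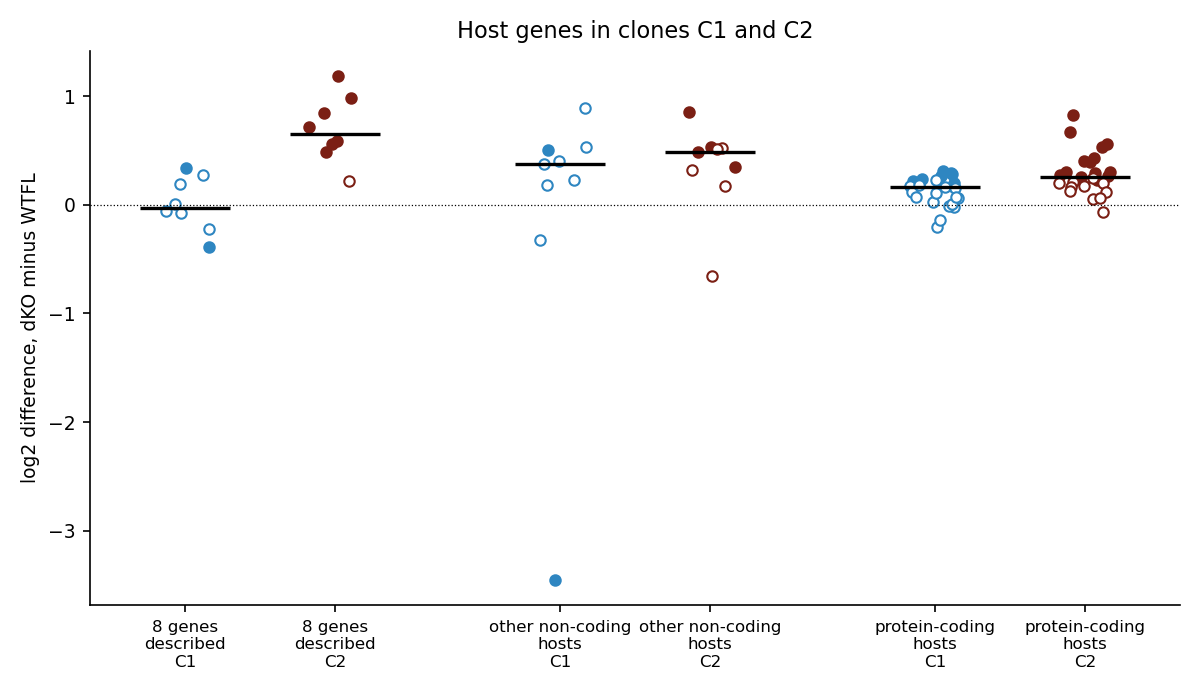
Log2 difference of dKO against WTFL cells (y axis, log2(normalized reads + 1) scale) for each tested gene of 3 lists, the 8 hosts described, 9 other non-coding and 25 protein-coding hosts, with clone C1 in blue, C2 in dark red, filled points for an adjusted p under 0.05 and a black bar at each median. The medians of the 8 hosts are -0.03 in C1 and 0.65 in C2, and the lowest point is Snhg11 in C1.

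Proteins that act on snoRNAs or on host RNA were counted next. Here and in the lists that follow, a gene given for 1 clone alone was called in that clone. Its value in the other clone is not reported here. Of the 8 core proteins of the snoRNA particles, 1 (12.5%) was higher and 1 (12.5%) lower in dKO cells of C1 and 2 (25%) were higher in C2. Among all genes 17.1% were higher and 19.9% lower in C1, and 17.4% were higher in C2. Nop58, a box C/D core protein, had a log2 difference of -0.09 in C1 (adjusted p = 0.415) and 0.89 in C2 (SE 0.08, adjusted p = 4.93e-07), with a difference between the clones of 0.98 (adjusted p = 1.32e-05). Of the H/ACA core proteins, Nop10 rose by 0.80 in C1 (adjusted p = 0.000436) and had 0.18 in C2 (adjusted p = 0.368), and Dkc1, the pseudouridine synthase, fell by 0.43 in C1 (adjusted p = 0.000124) and had 0.15 in C2 (adjusted p = 0.1). Of 10 assembly factors, 1 (10%) was higher and 3 (30%) lower in C1 and 1 (10%) was higher in C2. Shq1, a chaperone of Dkc1, fell by 0.48 in C1 (adjusted p = 0.000687), and Znhit6, a box C/D assembly factor, rose by 0.33 in C2 (adjusted p = 0.0248).

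Of 17 factors of nonsense-mediated decay, 1 (5.88%) was higher in dKO cells of C1, and 4 (23.5%) were higher and 1 (5.88%) lower in C2. Over all genes 17.1% were higher in C1, and 17.4% were higher and 20.1% lower in C2. Upf3b rose by 0.60 in C2 (SE 0.09, adjusted p = 8.32e-05) and had 0.23 in C1 (adjusted p = 0.0524), Upf3a rose by 0.38 in C1 (adjusted p = 0.0255), and Magohb, a part of the exon junction complex, fell by 0.67 in C2 (adjusted p = 0.00396). The helicase Dhx34 was not called in either clone.

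Of 16 genes of the mTOR pathway and of 5′ TOP mRNA regulation, 1 (6.25%) was higher and 4 (25%) lower in dKO cells of C1. In C2, 2 (12.5%) were higher and 3 (18.75%) lower. The shares of all genes were 17.1% higher and 19.9% lower in C1 and 17.4% and 20.1% in C2. Ddit4, an inhibitor of mTOR, rose by 1.07 in C1 (adjusted p = 0.00129) and Eif4ebp2, a repressor of cap-dependent translation, rose by 0.53 in C2 (adjusted p = 1.17e-05). Deptor, another mTOR inhibitor, fell by 1.02 in C2 (adjusted p = 0.000223), and Sesn2 fell by 0.41 in C1 (adjusted p = 0.0329).

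Of the glucocorticoid receptor and 7 of its targets, 2 (25%) were higher and 1 (12.5%) lower in C1, and 2 (25%) were higher and 2 (25%) lower in C2. All genes had shares of 17.1% higher and 19.9% lower in C1 and 17.4% and 20.1% in C2. Zbtb16 was listed at 0 in all 3 C1 WTFL libraries with a mean of 82.7 normalized reads in C1 dKO cells, and its mean was 1.93 in WTFL and 228 in dKO cells of C2. Sgk1, a kinase that glucocorticoids induce, fell by 1.36 in C1 (adjusted p = 0.00311) and fell by 2.25 in C2 (adjusted p = 4.34e-05). Klf9 rose by 1.20 in C1 (adjusted p = 0.000224) and had -0.15 in C2 (adjusted p = 0.59), and Dusp1 was not called in either clone.

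Gas5 shares its name with other growth-arrest-specific genes, which encode unrelated proteins. Of 7 listed, 5 were tested, with 1 (20%) lower in C1 and 2 (40%) higher and 2 (40%) lower in C2. Of all genes 19.9% were lower in C1, and 17.4% were higher and 20.1% lower in C2. Gas7, a protein of the actin cytoskeleton, fell by 1.21 in C1 (adjusted p = 6.34e-07) and rose by 0.47 in C2 (adjusted p = 0.00436). Gas2l3 rose by 0.36 in C2 (adjusted p = 0.046), Gas2l1 fell by 0.49 in C2 (adjusted p = 0.0025), and Gas8 was not called.

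Among the genes most like Gas5 over the 15 libraries, by Pearson r of log2(normalized reads + 1) over 12672 tested genes, were Ripor1 (r = 0.976), the cadherin gene Cdh1 (0.957), Gapt (0.957) and Yeats4 (0.952). These r describe 15 libraries that share a line within each group. Of the other hosts, Snhg8 (r = 0.893, rank 85) and Snhg1 (0.863, rank 157) were most like Gas5. Snhg6 (0.792) and Zfas1 (0.640) came next, then Snhg5 (0.562) and Snhg12 (0.393), and Snhg3 was last (0.179, rank 4304).

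Myeloid markers moved with the genotype. The sum of the 8 progenitor markers was 98676 to 101272 normalized reads in WTFL, 176055 to 203662 in dKO and 166777 to 204259 in dKO-LAP* libraries of C1, and 98553 to 103947 in WTFL and 135569 to 161915 in dKO libraries of C2. Of the 8 markers, 6 were higher in dKO cells of C1, and 5 were higher and 1 lower in those of C2. The shares of all genes were 17.1% higher in C1, and 17.4% higher and 20.1% lower in C2. The sum was thus raised in the dKO cells of both clones, while most hosts were raised in C2, and its part in the host gene values was not tested. The most abundant markers weigh most in this sum. Over all libraries Mpo ran from 1533 to 77194 and Elane from 34951 to 76021 normalized reads. Itgam had at most 1885 and Kit at most 2426, so the sum does not describe each marker.

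Markers of other cell types moved as well. Pdgfrb, a growth factor receptor of stromal cells, had 6.69 to 12.6 normalized reads in C1 WTFL, 45.3 to 58.2 in C1 dKO, 55.3 to 64.8 in C1 dKO-LAP*, 1.83 to 3.98 in C2 WTFL and 88.9 to 107 in C2 dKO libraries. It was lowest in WTFL and highest in dKO cells of C2, as Gas5 was. Its log2 difference between dKO and WTFL cells was 2.32 in C1 (adjusted p = 3.59e-06) and 4.68 in C2 (adjusted p = 1.72e-09), and the difference between these was 2.36 (adjusted p = 0.00017). Afp, a protein of fetal liver cells, had 27.1 to 36.1 normalized reads in WTFL and 7.06 to 10.5 in dKO libraries of C1, and 106 to 165 and 72.9 to 83.7 in those of C2. It fell by 1.80 in C1 (adjusted p = 3.88e-05) and fell by 0.69 in C2 (adjusted p = 0.0425), and it was higher by 1.97 in C2 than in C1 WTFL cells (adjusted p = 1.14e-05). Pecam1, which myeloid cells also express, was not called between dKO and WTFL cells, but fell by 1.33 in dKO-LAP* against dKO cells (adjusted p = 0.00115) and fell by 1.23 in C2 against C1 WTFL cells (adjusted p = 0.000125). The part of Pdgfrb, Afp or Pecam1 in the host gene values was not tested.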

How the data were processed

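RNA-seq libraries (TruSeq stranded mRNA, paired-end reads of 76 nt on an Illumina NextSeq) came from 5 groups of 3 RNA samples, grouped by the labels. The authors aligned reads to mm10 with STAR 2.5.3a, counted them per gene with HTSeq 0.10.0 and deposited, as a signal, counts divided by the DESeq2 1.26.0 size factor of each library. The annotation and the strand setting of the counting are not given in the sources used here. The 5 rows that name no gene (22.4% to 26.2% of reads) were left out, and 3 columns headed as LAP* of clone C2, which matched no sample, were not used. Every column held whole multiples of 1 step, and 100.0% of values came out whole within 0.1 reads, so reads were recovered for the count tests.

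limma 3.58.1 (R 4.3.3) was fitted over 15 libraries to log2(normalized reads + 1), with a trended prior and a mean for each of the groups; 12673 genes with 10 or more normalized reads in 3 or more libraries were tested. Calls are Benjamini-Hochberg adjusted p under 0.05, two-sided. The fit was tested on simulated data. The host genes and all gene lists were chosen with earlier results of these data known. Named genes are the 8 hosts, opposite-strand neighbours starting within 1000 bases, the 2 largest mean rises and the 2 largest mean falls over both clones in each list, and the 5 genes with highest r to Gas5, of which 1 is not reported here. Of 26111 genes with no symbol, 26006 were named from GENCODE vM21; Snhg4, Snhg7, Snhg14 and D17H6S56E-5 matched no row. Promoter windows are from RefSeq (GRCm38.p6), transcript starts and snoRNAs from GENCODE vM21. Alternatives were pseudocounts of 0.1 and 5, no filter, quantile normalization, a replicate block, a fit of the compared groups alone, leaving out each library, edgeR 4.0.16 and DESeq2 1.42.0. Plots were drawn with matplotlib 3.10.9 and tables with numpy 2.4.6 and pandas 2.3.3 in Python 3.11.15. Each standard error rests on the spread within groups over all 15 libraries and the trended prior.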

Additional observations from a re-analysis of the deposited data

Results flagged for a closer look

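The dKO effect differed between clones C1 and C2 for 6 of the 8 hosts by the interaction contrast of limma (effect in C2 minus effect in C1, Benjamini-Hochberg adjusted p under 0.05 over 12673 genes), where 15.1% of all genes were called in this direction. The log2 difference between the effects was 1.10 for Zfas1, 1.05 for Snhg6, 0.85 for Gas5, 0.81 for Snhg12, 0.57 for Snhg8 and 0.49 for Snhg5, each with 3 libraries per group. All of these but Snhg6 were also called lower in WTFL cells of C2, which are part of the contrast. The dKO mean was not higher in C2 than in C1 for Snhg12 (198 and 221 normalized reads) and Snhg5 (626 and 669). It was higher in C2 for Gas5, Snhg6, Snhg8 and Zfas1. The call of Snhg5 (adjusted p = 0.0475) was lost in 17 of 23 alternatives, 13 of them with 1 library left out. Each group is 1 line and the dKO lines came from different mice, so a difference between clones and one between mice cannot be told apart.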

How the results depend on the processing

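Of 1104 log2 differences of single hosts under 23 alternatives, 1067 kept their direction and side of the threshold, 21 lost the call, 16 gained it and 0 reversed. The calls of Gas5 and Zfas1 in C1 and of 7 hosts in C2 held in all 23. Hosts called higher in C1 were 2 under quantile normalization, which added Snhg8, and 1 to 2 when a library was left out (Snhg8 was added without C1 dKO library 2 or C1 WTFL library 3). For dKO-LAP* against dKO cells 1 host, Snhg3, was called with a pseudocount of 5, under quantile normalization, in edgeR and in DESeq2, and 0 to 1 when a library was left out (1 without dKO-LAP* library 1 or WTFL library 3). For dKO-LAP* against WTFL cells 1 host was called when only these groups were fitted (Snhg3 was lost), and 1 to 2 when a library was left out (1 without dKO-LAP* library 2 or 3 or WTFL library 1). Quantile normalization also added Snhg1 for dKO-LAP* against WTFL cells (adjusted p = 0.0446) and Snhg3 for dKO against WTFL cells of C2 (adjusted p = 0.0495), and fitting only the compared groups added Snhg1 for the difference between the clones (adjusted p = 0.0224). Snhg1 was also called without dKO-LAP* library 2, for that difference (adjusted p = 0.0174) and for WTFL cells of C2 against C1 (adjusted p = 0.0211). Snhg5's difference between the clones was lost in 17 of 23 alternatives, 13 of them with 1 library left out. The 5′ TOP count on RefSeq starts was 4 of 7 hosts under the run definition and 2 of 7 under the strict one, and the strict one gave 7 of 8 on starts of single GENCODE transcripts, so it moves with both the definition and the starts used.

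Over all genes, quantile normalization called 2681 higher and 2052 lower in C1 (2170 and 2516 in the main analysis), 2416 and 2289 in C2 (2211 and 2549), 2886 and 2378 for WTFL cells of C2 against C1 (2493 and 2699), 1752 and 1923 for the difference between the clones (1910 and 1810), and 2521 and 1910 for dKO-LAP* against WTFL cells (1796 and 2322). For dKO-LAP* against dKO cells, 86 genes were higher when only these groups were fitted (181 in the main analysis), and leaving out a library gave 75 to 259 higher and 196 to 469 lower (384 in the main analysis); the cause was not tested.

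The replicate numbers did not pair the samples: deviations of same-numbered samples had a mean correlation of -0.003, 5 of 30 pairs were above 0.1, and 8 of 15 libraries correlated best with their own number. With the replicate number as a block, 7 hosts differed between the clones (6 without it) and 7 were lower in WTFL cells of C2 (6 without it), with Snhg1 added in both. The squared difference in reads between 2 libraries of a group, divided by its variance from counting alone, averaged 5.35 to 33.7 per gene. Over the genes as a whole, samples of a group thus differed by more than counting error. For single hosts the 2 were not separated here, and each group is 3 libraries of 1 line.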

Other observations

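In dKO cells of C2 the 16 other non-coding genes that hold an annotated snoRNA gene included several without a Snhg name. The genes named here were chosen after their values were seen. 1110038B12Rik had mean normalized reads of 441 (WTFL) and 690.1 (dKO) in C2, a log2 difference of 0.64 (SE 0.09, adjusted p = 3.35e-05, limma), against 0.16 in C1 (adjusted p = 0.173), and the difference between the clones was 0.48 (adjusted p = 0.00807). Gm29170 rose in both clones, by 0.56 in C1 (adjusted p = 0.0365) and by 1.15 in C2 (adjusted p = 0.000281). Gm26512 also rose in both, by 1.71 in C1 (adjusted p = 8.56e-05) and by 1.03 in C2 (adjusted p = 0.00566), and its difference between the clones was not called (adjusted p = 0.189).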
